A study of Mus musculus with 8 samples.

Results

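This report covers 8 genes of the chemokine system in mouse gut lymphocytes, 4 chemokines (Ccl3, Ccl4, Ccl5 and Xcl1) and 4 chemokine receptors (Ccr9, Ccr2, Cxcr3 and Cxcr6), out of 52661 genes measured. They were picked by gene symbol, with earlier results of these data known, and all 8 had enough reads to be tested. The cells were intraepithelial lymphocytes of C57BL/6 mice, the immune cells that lie between the epithelial cells of the gut, sorted as CD45+ and then cultured for 24 h at 10% serum. One group of 4 libraries came from cells given recombinant osteopontin at 2 µg/ml, and the other group of 4, called null, from cells without it. Both groups carry the library names 1, 2, A and B, and the labels give no altered allele in either, nor age, sex or part of the gut. Separate mice or separate wells are not stated for the libraries of a group, so the p-values below rest on variation among libraries that could be technical.

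Chemokines are small secreted proteins that steer leukocytes by binding membrane receptors coupled to G proteins. Ccl3, Ccl4 and Ccl5 attract T cells and myeloid cells, and Xcl1 acts on Xcr1 of cross-presenting dendritic cells. Ccr9 answers to Ccl25, which the epithelium of the small intestine makes, and it is the receptor most closely tied to lymphocyte homing to that tissue. Cxcr3 answers to the interferon-induced Cxcl9, Cxcl10 and Cxcl11, Cxcr6 to Cxcl16, and Ccr2, best known from monocytes, to Ccl2 and its relatives.

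The coding sequences show what sets the 4 chemokines apart. The stretches below run from codon 29 to codon 45 of each coding sequence, taken from the GENCODE M21 transcripts, 5′ to 3′, and capitals mark cysteine codons.
Ccl3: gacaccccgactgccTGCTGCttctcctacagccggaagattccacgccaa
Ccl4: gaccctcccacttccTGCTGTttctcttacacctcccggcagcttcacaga
Ccl5: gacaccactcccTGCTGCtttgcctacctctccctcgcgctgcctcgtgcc
Xcl1: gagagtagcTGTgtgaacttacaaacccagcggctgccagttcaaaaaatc

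Ccl3, Ccl4 and Ccl5 hold 2 adjacent cysteine codons in this window, the mark of the CC family, and Xcl1 holds 1, the mark of the small C family. Each stretch lies in exon 2. On GRCm38, the build of that annotation, the stretches are chr11:83648622-83648672 on the minus strand (Ccl3), chr11:83663467-83663517 on the plus strand (Ccl4), chr11:83529209-83529259 on the minus strand (Ccl5) and chr1:164932936-164932986 on the minus strand (Xcl1). The 3 CC genes are thus neighbours on chromosome 11, while the receptors Ccr9, Cxcr6 and Ccr2 lie together on chromosome 9 and Cxcr3 on the X chromosome. No run of 31 bases of Ccl3, Ccl4, Xcl1, Cxcr3 or Cxcr6 occurs in another gene among the 131233 measured transcripts matched to GENCODE M21. The remaining measured transcripts were not searched. The share of such runs found in other genes was 0.539% for Ccl5, 2.86% for Ccr9 and 3.41% for Ccr2.

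Lymphocyte transcripts were abundant in both groups and differed little between libraries. Summed levels of 10 T and intraepithelial lymphocyte markers were 6068 to 6474 CPM with osteopontin and 5739 to 6147 CPM in null libraries, where CPM is the reads of a gene scaled to the total of its library. Libraries held 49108969 to 71399847 estimated reads, and 3 reads, the floor that counting error sets, stood for 0.0420 to 0.0611 CPM. Markers of other cells were present too. Summed dendritic, B cell and endothelial transcripts varied between single libraries of both groups. Fibroblast sums were 7.49 to 28.5 CPM with osteopontin and 8.41 to 324.9 CPM in null libraries, with the high values in null libraries 1 and A. All 9 fibroblast markers were fitted lower with osteopontin, at a median log2 fold change of -4.72, and 0 had an adjusted p under 0.05. An unadjusted edgeR p under 0.05 was found for 6 of the 9, against 3.93% of all tested genes. In such bulk samples, fewer cells of a type and less RNA per cell cannot be told apart.

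Ccl5 dominated the chemokine transcripts of these cells. In TPM, which corrects for transcript length and so allows levels of different genes to be compared, Ccl5 stood at 12065, 12421, 10451 and 9430 TPM in osteopontin libraries 1, 2, A and B, against 11033, 13046, 9048 and 8782 TPM in the null libraries of those names. Its rank among all genes by TPM was 3 in 7 libraries and 4 in null library A. It made up 97.1% to 98.5% of the summed TPM of the 4 chemokines with osteopontin and 96.6% to 98.5% in null libraries.

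The receptors Cxcr6, Ccr9 and Cxcr3 followed, then the other chemokines, and Ccr2 came last. Cxcr6 averaged 287.6 ± 26.9 TPM with osteopontin and 296.3 ± 37.7 TPM in null libraries (SD, n = 4 each). Ccr9 averaged 237.2 ± 20.4 TPM with osteopontin and 231.7 ± 13.8 TPM in null libraries, and Cxcr3 192.2 ± 16.9 TPM with osteopontin and 185.3 ± 12.5 TPM in null libraries. These 3 receptors thus stood far below Ccl5 and above the other 4 genes. Ccl4 averaged 80.3 ± 6.83 TPM with osteopontin and 76.4 ± 17.1 TPM in null libraries, and Ccl3 77.3 ± 8.59 TPM with osteopontin and 73.9 ± 25.9 TPM in null libraries. Xcl1 averaged 65.4 ± 27.0 TPM with osteopontin and 68.8 ± 23.3 TPM in null libraries, and Ccr2 4.38 ± 2.45 TPM with osteopontin and 4.73 ± 2.11 TPM in null libraries. The order of the mean levels was the same in both groups. The ranges of Ccl4, Ccl3 and Xcl1 overlapped each other in both groups, and those of Ccr9 and Cxcr3 overlapped with osteopontin only by 209.5 against 210.1 TPM. All other neighbours in the order were separate within each group.

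**Figure D1:**
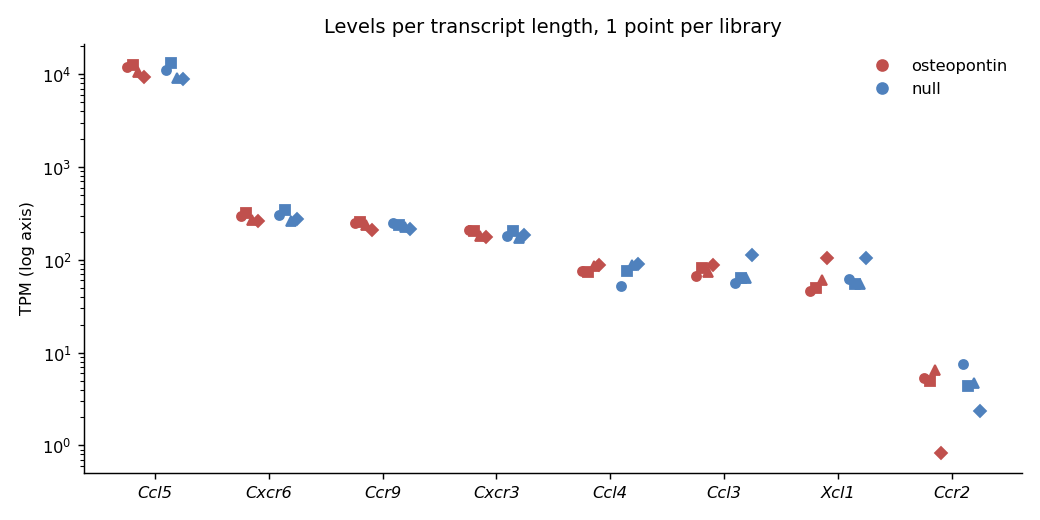
Level of each gene in TPM on a log axis, with 1 point per library, osteopontin in red left of null in blue, and marker shapes for libraries 1 (circle), 2 (square), A (triangle) and B (diamond). Ccl5 lies at 8782 to 13046 TPM, far above Cxcr6 at 260.7 to 344.7 TPM, and Ccr2 lies lowest at 0.820 to 7.50 TPM.

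None of the 8 genes differed between the groups by more than the libraries of a group did. By edgeR's quasi-likelihood test, fitted to all 18631 tested genes, 0 of the 8 had an adjusted p under 0.05, where the share of all genes called was 0%. DESeq2 called 0 of the 8 and 0.220% of all genes, and edgeR without a filter on low counts 0 of the 8 and 0.0131%. An unadjusted p under 0.05 was found for 0 of the 8 genes, against 3.93% of all tested genes, and their p values ran from 0.494 to 0.822. The groups overlapped for all 8, where they did not overlap for 3.47% of all genes. Fitted log2 fold changes, osteopontin over null, ran from -0.20 (Ccr2) to 0.06 (Ccl5), 5 above 0 and 3 below where 50.1% of all genes lay above 0, with a median of 0.03 beside 0.00 over all tested genes. The adjusted p of each was 1.00 after rounding. The 95% intervals lay within a 1.5-fold change in either direction for 6 of the 8 genes and within a 2-fold change for 7, where 76.1% and 93.7% of the 10616 genes averaging 5 CPM or more had such intervals. The exceptions were Xcl1 for the narrower bound and Ccr2 for both.

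**Figure D2:**
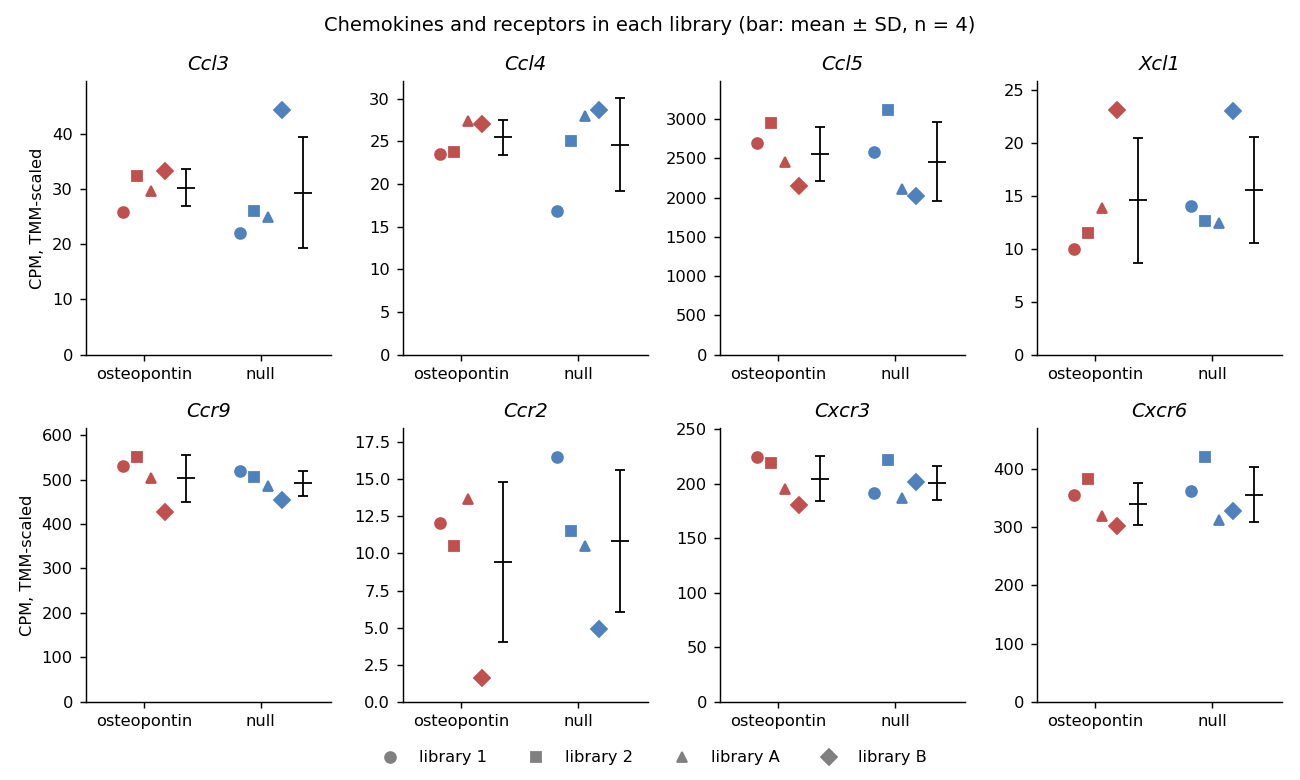
Level in CPM on TMM-scaled totals of each gene in each library, with osteopontin in red left of null in blue, and the mean ± SD of each group beside its 4 points. Groups overlap for every gene, and the libraries named B (diamonds) are the highest for Xcl1 at 23.1 and 23.0 CPM and the lowest of their group for Ccr2 at 1.58 and 4.88 CPM.

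Among the chemokines, Ccl3, an inflammatory attractant of macrophages and T cells, stood at 25.7, 32.3, 29.6 and 33.2 CPM in osteopontin libraries 1, 2, A and B, against 22.1, 26.1, 24.9 and 44.2 CPM in null libraries. Null library B was the highest of all 8 and the other 3 null libraries lay below 3 of the 4 osteopontin libraries. The fitted log2 fold change was 0.04 (SE 0.19, 95% interval -0.36 to 0.45). Without null library B it was 0.31 (95% interval 0.02 to 0.60), still not called over all genes, and without null library 1 it was -0.07.

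Ccl4, the close relative of Ccl3, stood at 23.6, 23.8, 27.4 and 27.1 CPM in osteopontin libraries, against 16.8, 25.0, 27.9 and 28.6 CPM in null libraries. The lowest and the 2 highest values were all in null libraries, so the osteopontin values sat inside the null range. For Ccl4 the log2 fold change was 0.05 (SE 0.17, 95% interval -0.30 to 0.40), and -0.10 without null library 1. Within a library the ratio of Ccl3 to Ccl4 in TPM stayed between 0.876 and 1.11 with osteopontin and between 0.723 and 1.25 in null libraries.

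Ccl5, which memory and cytotoxic T cells store and release, stood at 2689, 2950, 2448 and 2144 CPM in osteopontin libraries, against 2587, 3111, 2107 and 2018 CPM in null libraries. In both groups library 2 was highest and library B lowest. Osteopontin over null, the log2 fold change was 0.06 (SE 0.16, 95% interval -0.32 to 0.43). It was 0.19 without null library 2 and -0.03 without null library B.

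Xcl1, also called lymphotactin, stood at 9.94, 11.5, 13.9 and 23.1 CPM in osteopontin libraries, against 14.1, 12.6, 12.5 and 23.0 CPM in null libraries. The libraries named B were the highest of both groups and the other 6 lay between 9.94 and 14.1 CPM. Its log2 fold change was -0.09 (SE 0.27, 95% interval -0.68 to 0.49). It was -0.40 without osteopontin library B and 0.16 without null library B.

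Among the receptors, Ccr9 stood at 529.8, 549.9, 504.5 and 427.5 CPM in osteopontin libraries, against 520.5, 506.5, 485.0 and 454.4 CPM in null libraries. Library B was the lowest of each group, and the highest of all 8 values was 1.29 times the lowest. Its log2 fold change was 0.03 (SE 0.08), and its 95% interval of -0.13 to 0.20 corresponds to 0.914 to 1.15 times the null level. Ccr9 is also known from plasmacytoid dendritic cells, whose marker Siglech varied from 3.90 CPM in osteopontin library B to 136 CPM in null library 1. Osteopontin library B, which had the least Siglech, also had the lowest Ccr9 of all 8 libraries, at 427.5 CPM. Null library B, next lowest in Siglech at 34.1 CPM, was next lowest in Ccr9 at 454.4 CPM. The highest values did not match, since Ccr9 was highest in osteopontin library 2, where Siglech stood at 92.0 CPM. Cxcr3 and Cxcr6 were also lowest in osteopontin library B, at 180.3 and 301.8 CPM. The part of plasmacytoid dendritic cells in the Ccr9 level was not tested.

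Cxcr3, a receptor of type 1 effector T cells, was as even. It stood at 224.2, 219.3, 194.9 and 180.3 CPM in osteopontin libraries, against 191.2, 222.0, 187.4 and 202.1 CPM in null libraries. All null values lay within the osteopontin range. Its log2 fold change was 0.03 (SE 0.08, 95% interval -0.14 to 0.20), or 0.907 to 1.15 times the null level.

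Cxcr6, a receptor of tissue-resident T cells, stood at 355.6, 383.0, 319.1 and 301.8 CPM in osteopontin libraries, against 362.7, 420.3, 313.4 and 327.7 CPM in null libraries. Library 2 was the highest of each group, and osteopontin library B was the lowest of all 8. The difference on the log2 scale was -0.07 (SE 0.10, 95% interval -0.27 to 0.14), or 0.828 to 1.10 times the null level.

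Ccr2 was the most variable of the 8. It stood at 12.1, 10.5, 13.7 and 1.58 CPM in osteopontin libraries, against 16.5, 11.5, 10.5 and 4.88 CPM in null libraries. Library B was the lowest of each group, and osteopontin library B held 78 estimated reads of Ccr2 where the other 7 held 318 to 951. The log2 fold change was -0.20 (SE 0.63, 95% interval -1.68 to 1.29), and this interval holds a 2-fold change in either direction. Its value was 0.16 without osteopontin library B and -0.44 without null library B. Without both B libraries it was -0.09 (95% interval -0.54 to 0.37).

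Dendritic and myeloid transcripts were lowest in the libraries where Ccr2 was lowest. The 15 macrophage and dendritic cell markers summed to 213.1, 183.2, 153.7 and 102.0 CPM in osteopontin libraries, against 204.7, 194.5, 165.7 and 107.1 CPM in null libraries. The 5 plasmacytoid dendritic cell markers other than Ccr9 summed to 309.2, 259.3, 274.5 and 97.5 CPM in osteopontin libraries, against 332.7, 284.1, 289.9 and 157.5 CPM in null libraries. Library B of each group had the smallest sum of both lists. No marker of either list was under 3 reads in all 8 libraries, but the complement genes C1qa and C1qb, which mark tissue macrophages, reached at most 0.505 CPM. The part of these cells in the Ccr2 level was not tested.

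**Figure D3:**
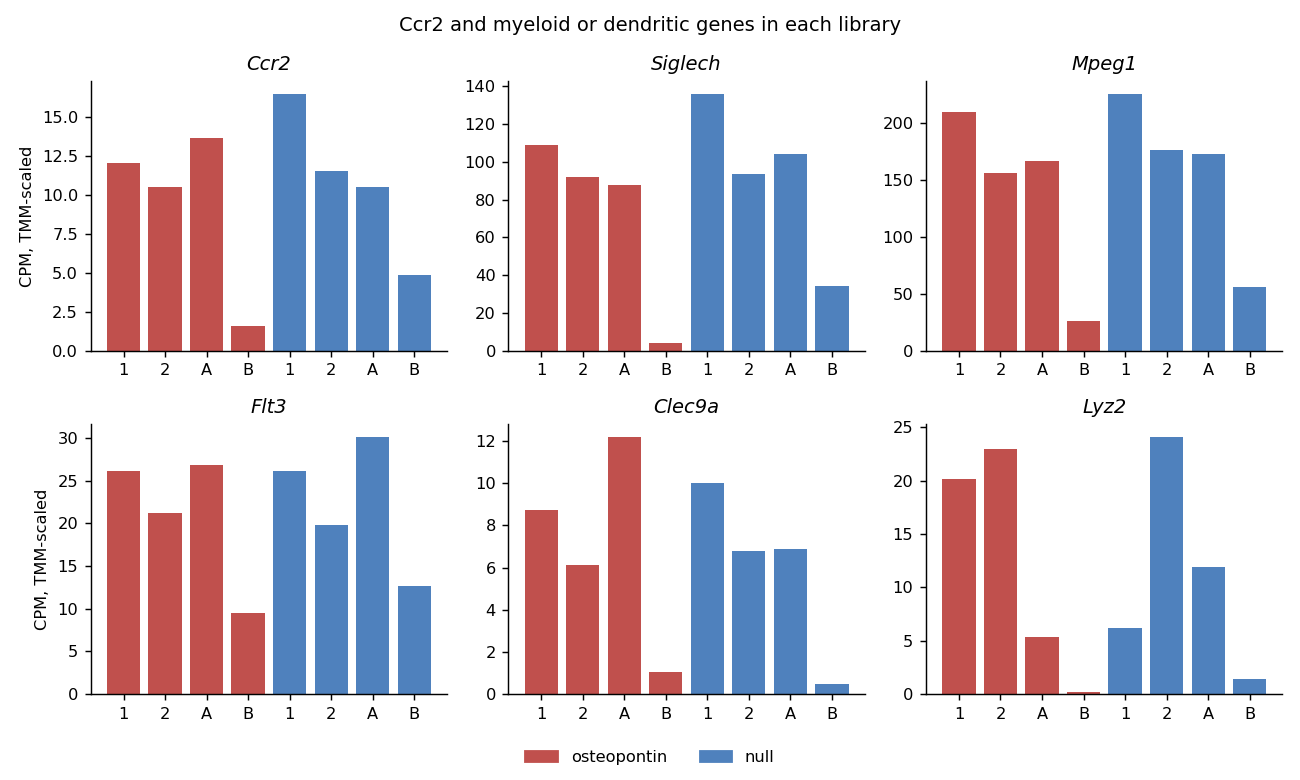
Level in CPM of Ccr2 and 5 genes of myeloid or dendritic cells in each library, osteopontin in red and null in blue. For Ccr2, Siglech, Mpeg1, Flt3, Clec9a and Lyz2 the B library is the lowest of its group, with Siglech at 3.90 CPM in osteopontin library B and 34.1 CPM in null library B.

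The partners of these ligands and receptors were scarce. Of 12 partners 7 were tested and 0 were called, with 4 fitted higher and 3 lower and a median log2 fold change of 0.07. Ccl25, the ligand of Ccr9, stood at 8.97, 8.91, 9.84 and 7.62 CPM in osteopontin libraries, against 8.94, 10.2, 10.5 and 16.4 CPM in null libraries. Null library B stood above the rest, and the log2 fold change was -0.38 (95% interval -0.88 to 0.12). It had the smallest p of the partners, 0.126 before adjustment over all genes by edgeR.

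Cxcl16, the ligand of Cxcr6, averaged 15.1 ± 4.06 CPM with osteopontin and 16.4 ± 5.33 CPM in null libraries (SD, n = 4 each), a log2 fold change of -0.12 (95% interval -0.65 to 0.42). It was lowest in library B of each group, at 10.1 CPM with osteopontin and 9.96 CPM in null, as were the macrophage and dendritic sums of 102.0 CPM with osteopontin and 107.1 CPM in null, whose part in it was not tested. Cxcl10, a ligand of Cxcr3, averaged 4.50 ± 0.981 CPM with osteopontin and 4.29 ± 2.29 CPM in null libraries, and the other Cxcr3 ligands Cxcl9 and Cxcl11 stayed at or below 0.606 CPM. Xcr1, the receptor of Xcl1, stood at 1.56, 1.09, 1.01 and 0.955 CPM in osteopontin libraries, against 0.0520, 0.283, 1.06 and 0.0307 CPM in null libraries. Its log2 fold change of 1.69 had an interval of -0.72 to 4.09, so the data did not fix its direction. Ccr1 and Ccr3, further receptors of Ccl5, stayed at or below 1.68 and 0.874 CPM. Of the Ccr2 ligands, Ccl2 reached 0.702 CPM and Ccl7 0.546 CPM in single null libraries, Ccl8 stayed at or below 0.0153 CPM, and Ccl12 had no read in any library.

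**Figure D4:**
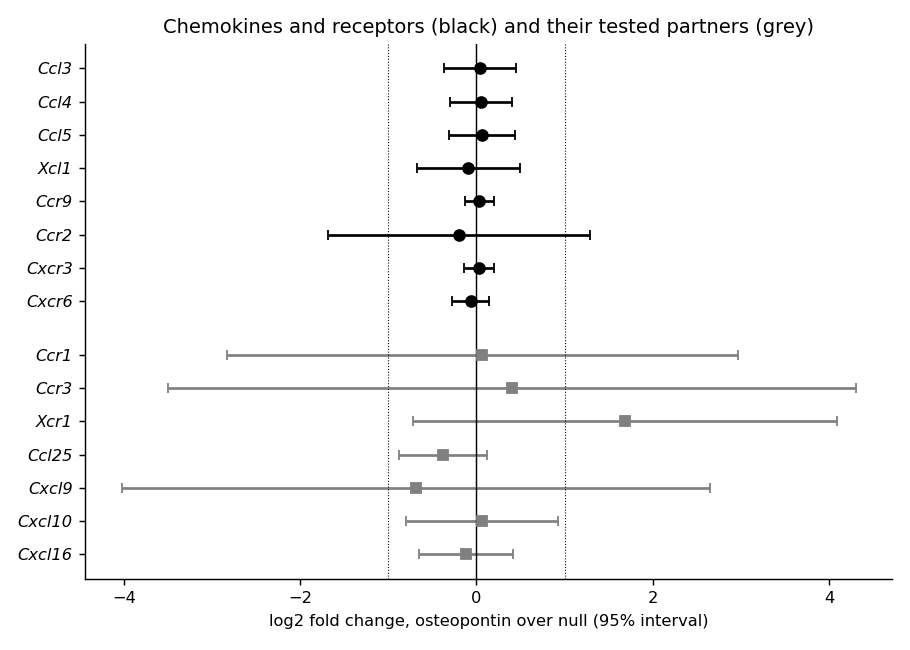
Log2 fold change, osteopontin over null, with its 95% interval for the 8 genes (black circles) and their 7 tested partners (grey squares), dotted lines marking a 2-fold change either way. All intervals include 0, and they are narrowest for Ccr9 (-0.13 to 0.20) and Cxcr3 (-0.14 to 0.20).

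The wider chemokine system held no called gene either. Of 32 other chemokine ligands 16 were tested, 5 fitted higher and 11 lower, with a median log2 fold change of -0.33 beside 0.00 over all tested genes. Those with the highest levels were Cxcl16, Ccl22 and Ccl25. Ccl22 stood at 8.03, 9.27, 17.7 and 16.1 CPM in osteopontin libraries, against 14.4, 7.13, 12.5 and 9.12 CPM in null libraries. Its lowest values were in osteopontin library 1 and null library 2, while Cxcl16 was lowest in library B of each group. The smallest p belonged to Cxcl1, a neutrophil attractant. Cxcl1 stood at 0.0281, 0.0147, 0.0171 and 0.630 CPM in osteopontin libraries, against 5.73, 0.440, 4.44 and 0.184 CPM in null libraries. It was high in null libraries 1 and A, where the 9 fibroblast markers summed to 324.9 and 179.5 CPM, against 7.49 to 28.5 CPM with osteopontin and 12.7 and 8.41 CPM in null libraries 2 and B. The part of fibroblast RNA in the Cxcl1 level was not tested.

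Of 13 other chemokine receptors reported here 11 were tested, 5 fitted higher and 6 lower, with a median of -0.07. Those with the highest levels were Cxcr4 (76.5 ± 18.1 CPM with osteopontin and 92.4 ± 12.8 CPM in null libraries, SD, n = 4 each), Ccr7, the receptor for lymph node entry (70.2 ± 18.3 CPM with osteopontin and 73.8 ± 16.6 CPM in null libraries), and Cxcr5. Ccr7, also known from migratory dendritic cells, was lowest in library B of each group, at 47.1 CPM with osteopontin and 54.7 CPM in null. It was highest in library A of each group, at 91.8 CPM with osteopontin and 93.3 CPM in null. The macrophage and dendritic sums were lowest in library B but highest in library 1 of each group. The sums of 10 B and plasma cell markers were lowest in library B and highest in library A of each group. The part of either cell type in the Ccr7 level was not tested. Cxcr5, the receptor for B cell follicles, also had the smallest p. It stood at 23.0, 17.2, 20.6 and 20.0 CPM in osteopontin libraries, against 26.0, 23.3, 25.4 and 25.9 CPM in null libraries. All osteopontin values lay below all null values, with a log2 fold change of -0.32 (95% interval -0.62 to -0.02, edgeR unadjusted p = 0.0377, adjusted p of 1.00 after rounding). All 10 B and plasma cell markers were fitted lower as well, with a median of -0.34 and 0 called. Their sums were 4610.5, 7547.8, 9139.4 and 4222.9 CPM in osteopontin libraries 1, 2, A and B. In the null libraries of those names they were 5342.7, 7355.3, 10064.3 and 3823.9 CPM. These sums overlapped between the groups, unlike Cxcr5, and null library B held the smallest sum beside 25.9 CPM of Cxcr5. The part of B cells in the Cxcr5 level was not tested. Of 5 atypical receptors, which bind chemokines without G protein signalling, 4 were tested and 0 called, and Ccrl2 stood highest at 4.38 ± 1.83 CPM with osteopontin and 4.95 ± 1.26 CPM in null libraries. Ackr3, which scavenges Cxcl12, had the smallest p of these. It stood at 0.0421, 0.0294, 0.669 and 1.22 CPM in osteopontin libraries, against 2.86, 0.801, 3.94 and 0.874 CPM in null libraries, and the 95% interval of its log2 fold change ran from -4.36 to 0.12. It was highest in null libraries 1 and A, the libraries with the fibroblast sums of 324.9 and 179.5 CPM, and the part of fibroblast RNA in its level was not tested.

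None of the signalling and homing partners was called. Of 32 measured signalling genes downstream of chemokine receptors, 5 were fitted higher and 27 lower, where 50.1% of all genes were fitted higher, with a median of -0.06 beside 0.00 over all tested genes. An unadjusted edgeR p under 0.05 was found for 5 of the 32, against 3.93% of all genes, and the groups did not overlap for 3, against 3.47% of all genes. Those with the highest levels were Dock2, Adrbk1 and Rac2. The guanine exchange factor Dock2 stood at 867.1 ± 36.6 CPM with osteopontin and 872.2 ± 16.1 CPM in null libraries, and the receptor kinase Adrbk1 at 653.0 ± 13.5 CPM with osteopontin and 656.0 ± 22.8 CPM in null libraries. The GTPase Rac2 stood at 497.1 ± 67.9 CPM with osteopontin and 519.3 ± 40.0 CPM in null libraries. Rap1a, a GTPase of integrin activation, had the smallest p of this list, at 97.8 ± 5.40 CPM with osteopontin and 112.9 ± 7.99 CPM in null libraries (log2 fold change -0.21, edgeR unadjusted p = 0.0137, not called). Of 15 tested homing and exit genes 4 were fitted higher and 11 lower, with a median of -0.04, and 1 had an unadjusted edgeR p under 0.05. Itgae, Itga4 and Selplg had the highest levels of these.

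Itgae, the integrin chain that binds epithelial E-cadherin, stood at 1225 ± 54.0 CPM with osteopontin and 1128 ± 53.9 CPM in null libraries. The gut-homing integrin chain Itga4 stood at 1007 ± 21.7 CPM with osteopontin and 934.0 ± 86.1 CPM in null libraries, and the selectin ligand Selplg at 810.7 ± 36.1 CPM with osteopontin and 814.2 ± 37.6 CPM in null libraries. S1pr1, the sphingosine 1-phosphate receptor that lets lymphocytes leave tissues, had the smallest p of the homing genes reported here. It stood at 103, 89.0, 109 and 89.7 CPM in osteopontin libraries, against 127, 99.8, 111 and 143 CPM in null libraries. The groups overlapped, since null library 2 lay below osteopontin libraries 1 and A, and the log2 fold change of -0.30 (95% interval -0.53 to -0.08, edgeR unadjusted p = 0.0124) did not pass after adjustment over all genes.

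Retinoic acid, the vitamin A product made in gut dendritic cells and epithelium, is known to induce Ccr9 in T cells. Of 18 genes of its receptors and metabolism 13 were tested, 5 fitted higher and 8 lower, with a median of -0.08 and 0 called. The receptor genes Rxrb and Rara stood at 125.9 ± 5.79 and 41.5 ± 5.63 CPM with osteopontin, against 122.9 ± 6.17 and 39.5 ± 5.52 CPM in null libraries. The retinol dehydrogenase Rdh10 stood at 40.5 ± 4.26 CPM with osteopontin and 42.7 ± 4.80 CPM in null libraries. Aldh1a1, which makes retinoic acid, had the smallest p and was scarce, at 0.295, 0, 0.0171 and 0.0406 CPM in osteopontin libraries, against 1.02, 0.0785, 1.16 and 1.04 CPM in null libraries. The groups overlapped, and its log2 fold change of -3.18 had an interval of -6.53 to 0.16.

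The 8 genes have 18 annotated transcripts, and 18 were tested. None was called among 50650 transcripts, where the share called was 0%, and 0 of the 18 had an unadjusted p under 0.05 by edgeR, against 1.98% of all transcripts. Ccl3, Ccl4, Xcl1 and Cxcr3 have 1 transcript each. The spliced transcript of Ccl5 held 98.7% to 99.1% of its TPM with osteopontin and 98.5% to 99.0% in null libraries. The rest lay on a form that retains an intron.

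Ccr9 was spread over 6 transcripts, led by a coding one of 2888 bases with 67.7% to 76.7% of its TPM in osteopontin libraries and 59.4% to 82.6% in null libraries. A coding transcript of 2620 bases held 13.4%, 1.74%, 12.7% and 13.6% in osteopontin libraries, against 6.01%, 14.3%, 0.253% and 24.4% in null libraries. Within each group this share ranged more widely than the Ccr9 total did. The form with a retained intron held 6.05%, 6.70%, 8.74% and 5.07% in osteopontin libraries, against 5.16%, 4.48%, 5.84% and 4.08% in null libraries. The groups overlapped, and its log2 fold change was 0.44 (95% interval -0.07 to 0.95, edgeR unadjusted p = 0.0842).

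Cxcr6 had 2 transcripts of nearly the same length. The minor one, of 1907 bases, held 13.4%, 5.86%, 3.91% and 22.0% in osteopontin libraries, against 7.08%, 5.83%, 6.60% and 4.86% in null libraries. It was highest in osteopontin libraries B and 1, and its log2 fold change was 0.76 (95% interval -0.32 to 1.83). For Ccr2 the leading transcript differed between libraries of the same group. That of 2999 bases held 25% to 97.3% in osteopontin libraries and 21% to 81.5% in null libraries. The files carry no error of the read assignment, so these shares are estimates without one.

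**Figure D5:**
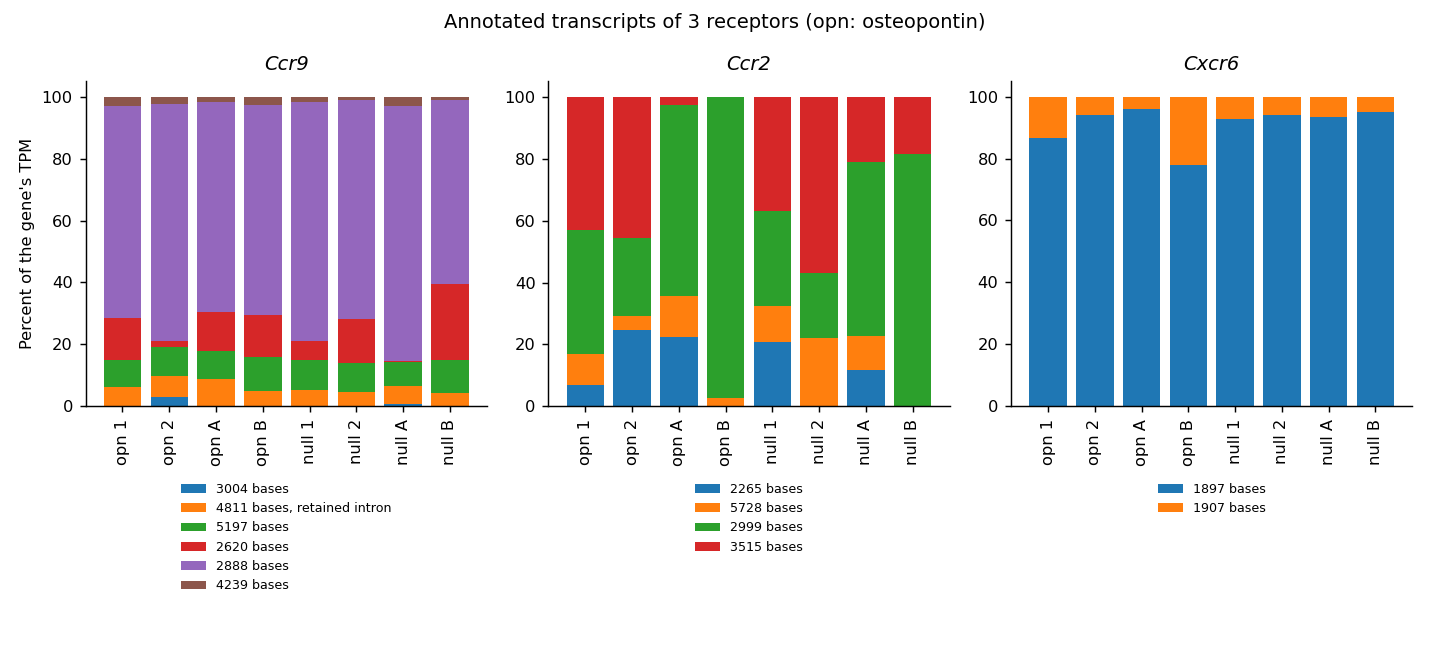
Share of each gene's TPM, in percent, on each annotated transcript (colours, named by length) of Ccr9, Ccr2 and Cxcr6 in the 4 osteopontin libraries, then the 4 null libraries. The 2888-base transcript of Ccr9 leads in every library, at 59.4% to 82.6%, while the leading transcript of Ccr2 differs between libraries.

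The spread over the 8 libraries divided the genes into even and uneven ones. The SD of log2 CPM was 0.12 for Ccr9, 0.12 for Cxcr3 and 0.16 for Cxcr6, which exceeded that of 26.2%, 27.0% and 46.2% of the genes averaging 5 CPM or more. It was 0.23 for Ccl5, 0.25 for Ccl4, 0.31 for Ccl3 and 0.44 for Xcl1, above 67.8%, 71.0%, 80.9% and 91.3% of those genes. For Ccr2 it was 1.08, above 98.4%. Likeness to other genes was measured as the root-mean-square difference of log2 CPM centred over the 8 libraries, among 9620 genes, and it describes these libraries only.

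The gene most like Ccr2 was Mpeg1, a pore-forming protein of macrophages and other phagocytes, with a difference of 0.193 where the median gene had 1.02. Mpeg1 stood at 210, 156, 167 and 26.0 CPM in osteopontin libraries, against 226, 177, 173 and 56.5 CPM in null libraries. Next came Cd300lf, a myeloid receptor, at 0.203. Xcl1 was most like Atp6v0d2 (0.151) and Tdrp (0.156), where the median gene had 0.444. Both of these were highest in library B of each group.

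Ccl3 was most like Eea1 (0.114) and Scrn2 (0.119), Ccl4 like Coil (0.0615) and Sap25 (0.0922), and Ccl5 like Uqcrh (0.0580) and Arpc4 (0.0667). Ccr9 was most like Xrn1 (0.0422) and Uhmk1 (0.0441), Cxcr3 like Tmem59 (0.0386) and Foxo3 (0.0442), and Cxcr6 like Fgl2 (0.0370) and Eef1a1 (0.0445). None of the 8 genes was among the nearest 2 of another.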

How the data were processed

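For each library the authors deposited estimated counts, TPM and effective lengths by transcript, made with Salmon per the submitters' processing notes. Neither the Salmon version nor the annotation and build behind it is given in the sources used here. The libraries were stranded, per the labels' protocols. Of 133618 transcripts, 131233 have the same versioned ID in GENCODE M21, and all of these have the same length there. Coordinates and sequences come from that release (GRCm38). Estimated counts were summed per gene and rounded. Groups were compared with edgeR 4.0.16 (R 4.3.3), robust quasi-likelihood F test, two-sided, with no covariate (filterByExpr at a minimum count of 10, TMM scaling), with Benjamini-Hochberg adjustment over all tested genes and a threshold of 0.05. Transcripts were fitted the same way. Standard errors are the fold change over the square root of F. CPM of tested genes use TMM-scaled totals, while marker sums and untested genes use plain totals. Deposited TPM were summed per gene for levels and for limma 3.58.1 on log2(TPM + 1) or log2(TPM + 0.1). DESeq2 1.42.0 was an alternative. The script was checked on simulated counts.

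The genes and lists were chosen with earlier results of these data known. Named were the 8 genes, all 12 partners, per other list the 3 highest genes and the smallest p, and per gene the 2 most alike with at least 5 CPM, leaving out predicted genes, pseudogenes and receptor segments. Genes given beside a result as markers were chosen after their values were seen. Gpr18 and some other genes of the chemokine and homing system are not reported here. The floor of 3 reads covers counting error only. The intervals of the log2 fold changes come from the fits and include variation among the libraries of a group.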

Additional observations from a re-analysis of the deposited data

Results flagged for a closer look

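Among 70 groups of 4 libraries examined for a library far from the other 3, 4 were found, a share close to the 1 in 20 that chance gives. Xcl1 stood at 23.0 CPM in null library B, against 12.5 to 14.1 CPM in the other null libraries. Aldh1a1 stood at 0.295 CPM in osteopontin library 1, against 0 to 0.0406 CPM in the other osteopontin libraries, and at 0.0785 CPM in null library 2, against 1.02 to 1.16 CPM in the other null libraries. Cxcl1 stood at 0.630 CPM in osteopontin library B, against 0.0147 to 0.0281 CPM in the other osteopontin libraries. For both Aldh1a1 and Cxcl1 these other osteopontin values lay under the floor of 3 reads.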

How the results depend on the processing

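None of the 8 genes was called under any alternative, with adjusted p of 0.864 or more. Over all genes DESeq2 called 41, the fit with no filter 4 and that without both B libraries 49, against 0. Leaving out 1 library gave 0 to 37 called genes and 0 to 2 called transcripts, both the most without osteopontin library B. Leaving out 1 library moved the log2 fold change between -0.0739 and 0.31 for Ccl3, -0.0996 and 0.13 for Ccl4, -0.026 and 0.19 for Ccl5, -0.40 and 0.16 for Xcl1, -0.0144 and 0.10 for Ccr9, -0.44 and 0.16 for Ccr2, -0.0195 and 0.0828 for Cxcr3 and -0.13 and 0.021 for Cxcr6. Its sign turned without osteopontin B, null 1, null 2 or null A for Ccl3, null 1 for Ccl4, osteopontin 2, null A or null B for Ccl5, and osteopontin 1, osteopontin 2 or null B for Xcl1. Among the receptors it turned without osteopontin 2 or null B for Ccr9, osteopontin B or null 1 for Ccr2, osteopontin 1, osteopontin 2 or null A for Cxcr3, and null 2 for Cxcr6. Without null libraries 1 and A the sign turned for Ccl3 (-0.22), Ccl4 (-0.0771), Ccl5 (-0.0058), Ccr2 (0.20) and Cxcr3 (-0.0523). The cause was not tested.

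With the replicate name as a block 0 genes (997 at an unadjusted p under 0.05 by edgeR) and 0 transcripts were called. Ccr2 then stood at -0.43 (95% interval -1.11 to 0.24), Ccl5 at 0.07 (-0.03 to 0.18) and Cxcr6 at -0.06 (-0.17 to 0.05). The intervals of all 8 genes were narrower with this block than without it, and all included 0. Deviations of same-named libraries correlated at 0.0712, 0.0485, 0.0437 and 0.123 for names 1, 2, A and B. Of the 8 libraries 7 correlated best with their namesake, and null A with osteopontin 1 (0.0611). Whether same-named libraries share mice or cultures is not stated, and the main fit did not pair them. Ccr2 rested on 78 reads in osteopontin library B and on 318 to 951 in the others.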

Other observations

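Cxcl12, the ligand of Cxcr4, was present in some libraries and nearly absent from others, a pattern chosen after its values were seen. It stood at 0.0983, 0.0294, 0 and 12.8 CPM in osteopontin libraries 1, 2, A and B, against 0.918, 10.2, 0.433 and 12.9 CPM in null libraries. The 7 endothelial markers summed to 83.1, 58.0, 80.4 and 126.4 CPM in osteopontin libraries, against 82.8, 128.0, 77.3 and 130.9 CPM in null libraries. The same 3 libraries were high in both. Whether endothelial RNA accounts for the Cxcl12 level was not tested.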
